A study of Mus musculus with 12 samples.

Results

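Dlk1, Plagl1, Mest, Peg3, Grb10, Cdkn1c, Ndn, Gnas and Sgce were grouped as imprinted growth regulators and read in neonatal cartilage. Neither their imprinting nor an action on growth was tested here. These 9 genes were taken by name from the 17536 genes of the expression table, and each matched 1 row. RNA had been sequenced from chondrocytes of the superficial zone (SFZ) and the deep zone (DZ) of 5-day-old mice. The sample labels give the strain as C57BL/6 and the study as C57BL/6J. R3-Cntl mice carried Runx3 fl/fl, and R3-cKO mice carried Col2a1-Cre; Runx3 fl/fl, so that the floxed Runx3 alleles were shared by all animals and Cre was driven by the Col2a1 promoter, which is active in chondrocytes. Each of the 4 groups (R3-Cntl SFZ, R3-cKO SFZ, R3-Cntl DZ and R3-cKO DZ) held 3 libraries, and the design asked how the zones differ and what loss of Runx3, a transcription factor of the Runt family, does in each zone. Cells were released from the ends of femurs and tibias by enzyme digestion and plated in monolayer, DZ cells coming from a further digestion of the cartilage that remained, so that the zones also differed in digestion.

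Imprinted genes are expressed mainly from the allele of 1 parent. Dlk1, Plagl1, Mest, Peg3, Ndn and Sgce are paternally expressed, Cdkn1c is maternally expressed, Grb10 is maternally expressed in most tissues, and the Gnas locus gives several overlapping transcripts with different parental origins. Many genes of this group are highly expressed in fetal and neonatal tissues and decline as growth slows, and several act on the insulin-like growth factor pathway or on the cell cycle. The values here are per gene, so they separate neither the parental alleles nor the transcripts of a locus.

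The promoters of Plagl1 and Peg3 are shown because these members differed most clearly between the zones, and those of Mest and Dlk1 because they held the letters of a Runx site. The sequences are from RefSeq on GRCm38.p6, run from 250 bases before to 50 after a gene start, and are written 5′ to 3′ on the strand of the gene. Capitals mark TGTGGT or TGCGGT, searched on both strands as letters of a Runx site, or GGGGCCCC, which reads the same on both strands and was searched as letters of a PLAG-type site; the motifs did not overlap.
Plagl1, chr10:13090582-13090881, plus strand: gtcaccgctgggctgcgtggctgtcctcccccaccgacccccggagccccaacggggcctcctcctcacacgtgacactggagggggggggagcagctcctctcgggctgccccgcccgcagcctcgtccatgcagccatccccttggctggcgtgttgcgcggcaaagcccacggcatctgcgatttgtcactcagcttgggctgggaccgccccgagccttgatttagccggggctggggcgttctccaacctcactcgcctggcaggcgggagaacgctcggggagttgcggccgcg
Peg3, chr7:6730370-6730669, minus strand: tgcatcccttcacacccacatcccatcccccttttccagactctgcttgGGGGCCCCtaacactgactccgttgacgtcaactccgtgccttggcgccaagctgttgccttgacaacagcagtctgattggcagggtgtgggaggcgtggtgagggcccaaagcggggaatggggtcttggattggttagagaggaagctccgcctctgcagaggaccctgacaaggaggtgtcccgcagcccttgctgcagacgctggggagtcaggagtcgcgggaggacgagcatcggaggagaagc
Mest, first listed start, chr6:30733256-30733555, plus strand: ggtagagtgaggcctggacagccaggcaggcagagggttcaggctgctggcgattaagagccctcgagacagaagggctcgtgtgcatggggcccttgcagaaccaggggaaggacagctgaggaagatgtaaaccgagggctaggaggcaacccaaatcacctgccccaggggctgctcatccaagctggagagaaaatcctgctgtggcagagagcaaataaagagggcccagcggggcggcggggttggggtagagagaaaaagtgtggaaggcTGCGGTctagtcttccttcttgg
Dlk1, chr12:109452573-109452872, plus strand: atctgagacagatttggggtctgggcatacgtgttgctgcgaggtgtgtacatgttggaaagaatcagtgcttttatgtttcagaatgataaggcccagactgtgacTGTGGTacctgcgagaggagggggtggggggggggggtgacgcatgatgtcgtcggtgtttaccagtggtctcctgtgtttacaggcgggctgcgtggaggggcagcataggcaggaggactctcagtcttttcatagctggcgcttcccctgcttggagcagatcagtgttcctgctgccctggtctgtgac

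The RefSeq table held 13 promoters for 7 of the members, with 4 for Gnas, 3 for Mest and 2 for Grb10; Cdkn1c and Sgce were not matched. The Runx letters were in 2 of the 13, the first Mest start and the Dlk1 start, against 22.4% of the 32851 promoters in the table. GGGGCCCC was in 1, that of Peg3, against 1.08% of all promoters. The Plagl1 window held 26 CpG dinucleotides and the Peg3 window 13, while the Grb10 starts held 45 and 9 and the Gnas starts between 16 and 40. In all, 5 of the 13 windows held 20 or more CpG dinucleotides, as did 26.5% of all promoters. A match of letters is a description of these windows and was not set against binding.

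The libraries are given in FPKM (fragment counts scaled to transcript length and to library size), and read depth was not given in the sources used here. FPKM summed to between 392241 and 429213 per library. The chondrocyte genes Col2a1 and Sox9 were expressed in all 12 libraries, at 3048.74 to 22790.57 FPKM and 40.06 to 111.16 FPKM. The listed tendon and fibroblast markers summed above the listed chondrocyte markers in R3-Cntl SFZ 2 (8698 against 5648 FPKM) and R3-cKO SFZ 3 (12620 against 6685 FPKM). They summed below them in every other library. The libraries with the R3-cKO label were not lower in Runx3. Its level was 10.73, 5.98 and 6.65 FPKM in R3-Cntl SFZ and 11.83, 9.07 and 3.42 FPKM in R3-cKO SFZ. In DZ it was at 12.67, 12.65 and 7.66 FPKM in R3-Cntl and at 15.95, 12.66 and 8.14 FPKM in R3-cKO. A gene-level value includes exons outside the floxed part, so it does not test the deletion, and the genotype below is that of the label. Skeletal muscle markers (11 genes) summed to 188.8 FPKM in R3-Cntl SFZ library 2 and to at most 20.38 FPKM in every other library.

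All 9 members were abundant in these cells. Mest, which encodes a protein of the hydrolase fold, averaged 1275 ± 345.1 FPKM (SD, n = 12) and ranked 28 among all genes by level. Gnas, which encodes the stimulatory G protein alpha subunit that couples receptors to cyclic AMP, averaged 1049 ± 83.96 FPKM and ranked 39. Cdkn1c, the cyclin-dependent kinase inhibitor p57, averaged 272 ± 185 FPKM. Peg3 and Plagl1, both zinc-finger proteins, averaged 240.2 ± 104.7 and 238.6 ± 93.13 FPKM. Grb10, an adaptor that dampens insulin and IGF1 receptor signalling, averaged 176.8 ± 18.77 FPKM, and Dlk1, a transmembrane protein with EGF repeats related to Notch ligands, averaged 99.92 ± 40.33 FPKM. Ndn, the MAGE-family protein necdin, and Sgce, epsilon-sarcoglycan of the dystrophin-associated complex, were lowest at 49.95 ± 8.357 and 41.74 ± 6.642 FPKM and ranked 1378 and 1683.

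**Figure D1:**
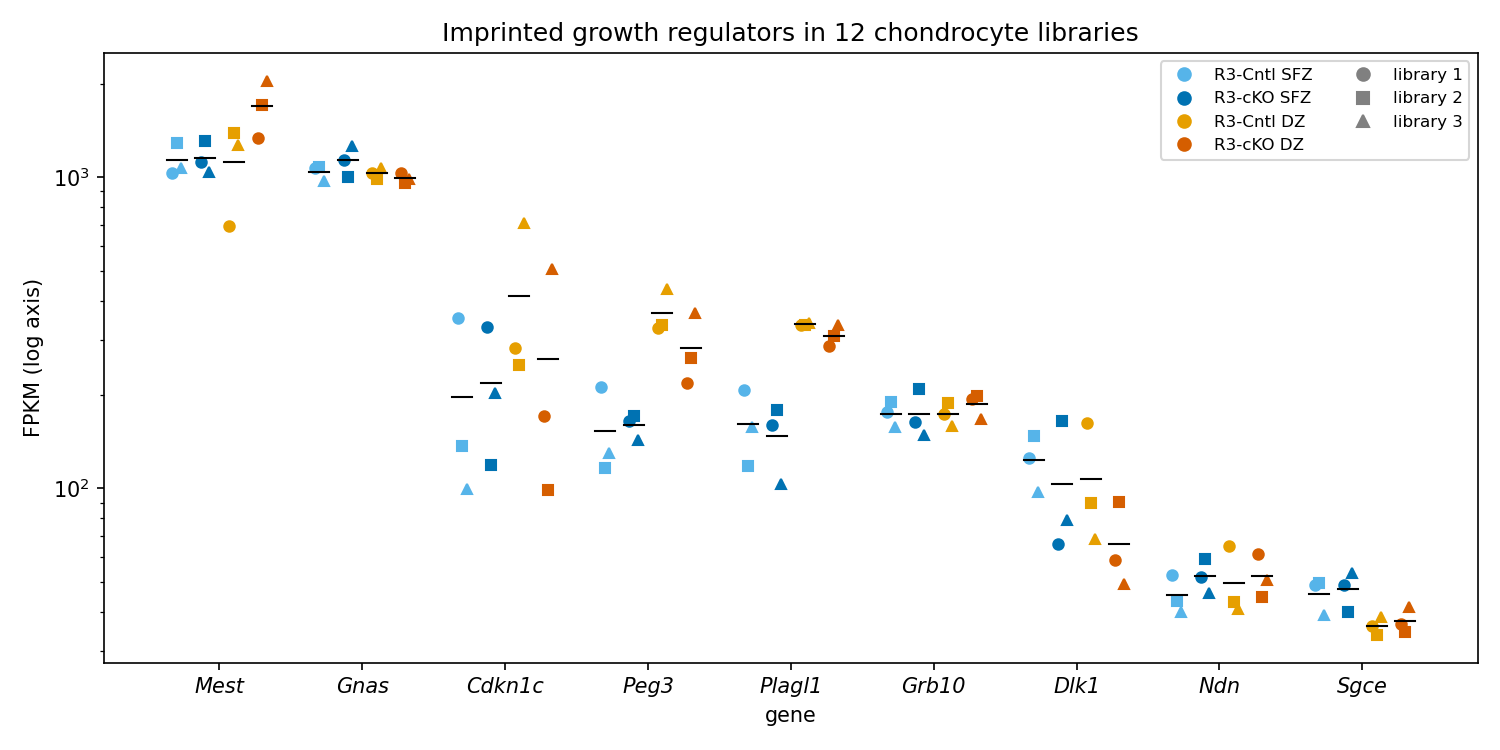
FPKM on a log axis for each member in each of the 12 libraries, coloured by group and with the library number as the symbol; short bars are the group means of 3 libraries. Plagl1 and Peg3 are higher in every DZ library than in every SFZ library, Gnas and Grb10 stay within narrow ranges, and Cdkn1c ranges from 98.65 to 711.96 FPKM.

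In each of the 4 groups Mest and Gnas headed the order of levels and Ndn and Sgce closed it. Between them Dlk1 was seventh in each group, and Cdkn1c, Grb10, Plagl1 and Peg3 changed places. Mest and Gnas were the 2 highest members in each group, and their libraries overlapped in all groups but R3-cKO DZ, where the lowest Mest value was 1340.16 FPKM and the highest Gnas value 1029.77 FPKM. Gnas stood above the third member without overlap in each group. In SFZ, Cdkn1c, Grb10, Peg3 and Plagl1 each overlapped the next in the order, while Dlk1, at 66.38 FPKM or more, stayed above Ndn, at 59.05 FPKM or less. In DZ, Plagl1 moved clear of Grb10, with a lowest value of 286.44 FPKM against a highest Grb10 value of 198.61 FPKM. Ndn and Sgce overlapped in both SFZ groups and were separate in both DZ groups.

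The members differed widely in how far replicate libraries spread. The coefficient of variation within a group ran from 3.7 to 11.2% for Gnas and from 8.23 to 18.2% for Grb10. For Cdkn1c it ran from 49.0 to 84.3%. Plagl1 spread by 27.9% and 26.6% in the SFZ groups and by 0.512% and 7.63% in the DZ groups.

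The zone comparison asked how DZ cells differ from SFZ cells over both genotypes. Of the 9 members, Plagl1 and Peg3 were higher in DZ by 2.14-fold and 2.06-fold, Sgce was lower, and 6 did not pass the test. Across all 11765 genes tested with limma, 2725 passed an adjusted p of 0.05, which is 23.2%. These were 4.3% higher in DZ (506 genes) and 18.9% lower (2219 genes). This split depended on the scaling, since 1237 genes passed as higher and 915 as lower with quantile normalization, and 1053 and 1088 with median-of-ratios size factors. The median log2 fold change was 0.055 over the members and −0.14 over all genes. Both moved with the scaling, to 0.218 for the members and 0.002 for all genes with size factors, and to 0.154 and 0.034 with quantile normalization. In bulk libraries, fewer cells of a type and less RNA per cell cannot be told apart.

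Plagl1, a zinc-finger transcription factor that restrains proliferation in cell culture and lies at chr10:12810497-12851500 (mm9, plus strand), gave the most regular pattern. It was at 207.37, 117.76 and 157.88 FPKM in R3-Cntl SFZ and at 159.27, 178.59 and 103.32 FPKM in R3-cKO SFZ. In DZ it was at 335.73, 335.9 and 338.8 FPKM in R3-Cntl and at 286.44, 308.32 and 333.63 FPKM in R3-cKO. Every DZ library lay above every SFZ library. On the log2(FPKM + 1) scale, used for all fold changes below, DZ was higher by 1.10 (SE 0.152, 95% interval 0.77 to 1.44, limma adjusted p = 0.00129). The exact permutation test, two-sided as all below, gave p = 0.00216, the smallest that 6 against 6 libraries can give. Both tests took the libraries as independent, although same-numbered DZ libraries were taken as paired. Their p between zones, here and below for Peg3 and Sgce, may therefore be too small. Plagl1 ranked 105 among the 11765 genes by the size of the DZ increase. Groups that did not overlap, with DZ higher, were found for 1.64% of genes tested.

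Peg3, a large zinc-finger protein tied to fetal growth and cell survival (chr7:6656603-6683132, mm9, minus strand), followed Plagl1 closely. It was at 211.24, 116.46 and 130.32 FPKM in R3-Cntl SFZ and at 164.14, 170.55 and 143.07 FPKM in R3-cKO SFZ. The DZ libraries were at 327.6, 334.32 and 438.06 FPKM for R3-Cntl and at 217.82, 263.17 and 365.54 FPKM for R3-cKO. The lowest DZ library, R3-cKO DZ 1, was just above the highest SFZ library, R3-Cntl SFZ 1. The log2 fold change was 1.04 (SE 0.182, 95% interval 0.65 to 1.44, limma adjusted p = 0.00364), with an exact permutation p of 0.00216. Across the 12 libraries Plagl1 and Peg3 had a Pearson r of 0.92 on the log2(FPKM + 1) scale, and 0.71 once the 4 group means were removed; these points share zone and genotype, and r is given as a description.

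Sgce (chr6:4624350-4697204, mm9, minus strand) went the other way by a smaller step. It was at 48.84, 49.51 and 39.05 FPKM in R3-Cntl SFZ, at 48.75, 40.12 and 53.29 FPKM in R3-cKO SFZ, at 36.17, 33.8 and 38.65 FPKM in R3-Cntl DZ and at 36.76, 34.42 and 41.48 FPKM in R3-cKO DZ. The zones overlapped, since R3-cKO DZ 3 was above the lowest 2 SFZ libraries. The log2 fold change was −0.32 (SE 0.091, limma adjusted p = 0.026, exact permutation p = 0.00866). Groups that did not overlap with DZ lower were found for 9.71% of genes tested. The call rested on the scaling of the libraries: the log2 fold change was −0.21 with quantile normalization (limma adjusted p = 0.201) and −0.16 with size factors (limma adjusted p = 0.279).

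**Figure D2:**
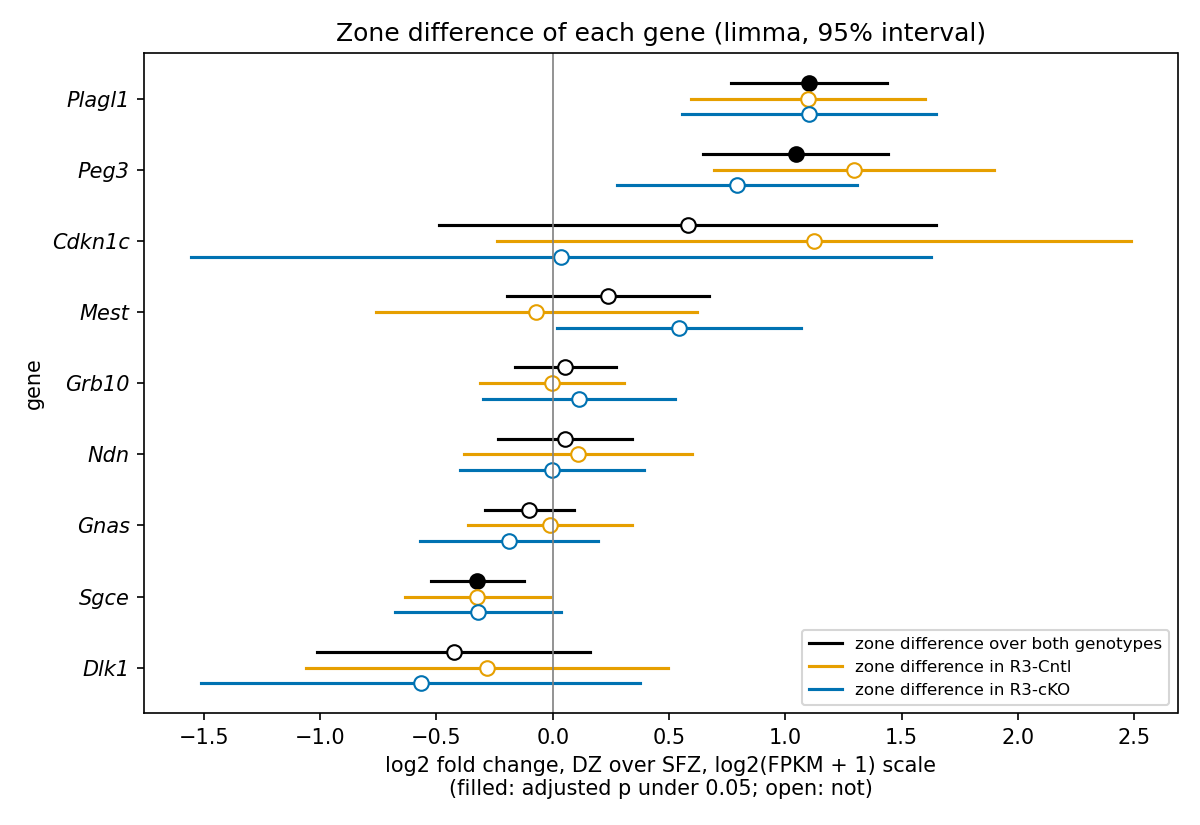
Log2 fold change of DZ over SFZ for each member with its 95% interval from limma, over both genotypes (black, 12 libraries) and within R3-Cntl (orange, 6 libraries) and R3-cKO (blue, 6 libraries). Filled points passed an adjusted p of 0.05: Plagl1 and Peg3 above 0 and Sgce below 0, each over both genotypes, while no member passed within a genotype.

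The other 6 members did not pass the test between zones. Cdkn1c (chr7:150644255-150646955, mm9, minus strand) had a log2 fold change of 0.58 with a 95% interval of −0.49 to 1.65 (limma adjusted p = 0.416), an interval that covered 0 and reached beyond the Plagl1 estimate. Mest (chr6:30673547-30698457, mm9, plus strand) was at 0.24 (interval −0.20 to 0.67) and Dlk1 (chr12:110691033-110701546, mm9, plus strand) at −0.43 (interval −1.01 to 0.16). The intervals were narrow for Grb10 (chr11:11830511-11938686, mm9, minus strand), at 0.055 (−0.16 to 0.27), for Ndn (chr7:69493163-69494814, mm9, plus strand), at 0.051 (−0.24 to 0.34), and for Gnas (chr2:174109821-174172245, mm9, plus strand), at −0.10 (−0.29 to 0.09). The sign for Gnas turned, at 0.064, with size factors. On the opposite strand Mest overlaps Copg2 by 904 bases and Gnas overlaps Nespas and AF085738; whether counting used strand was not given in the sources used here, so reads of these pairs may not be separated.

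Within each genotype the same directions were seen for Plagl1 and Peg3, without a call. In R3-Cntl, 1.24% of 11336 genes passed and no member did: Plagl1 was at 1.10 (SE 0.211, limma adjusted p = 0.059) and Peg3 at 1.30 (SE 0.252, limma adjusted p = 0.0594). In R3-cKO, 2 genes or 0.0176% passed and no member did: Plagl1 was at 1.10 (SE 0.225, limma adjusted p = 0.143) and Peg3 at 0.79 (SE 0.214, limma adjusted p = 0.205), and 352 genes but no member passed once the paired libraries entered as a replicate block. With 3 libraries against 3 an exact permutation p cannot fall below 0.1. In both genotypes all DZ libraries lay above all SFZ libraries for these members, as they did for 5.96% of genes in R3-Cntl and 4.24% in R3-cKO. The reverse order held for Sgce in R3-Cntl, where DZ reached 38.65 FPKM and SFZ began at 39.05 FPKM, against 26.4% of genes there, and for no member in R3-cKO, against 16.7%. In the same-numbered pairs of R3-cKO, Sgce, Gnas and Dlk1 were lower in DZ at each number, and Plagl1, Peg3 and Mest were higher. The share of all genes with such signs was not computed, so this is a description. Mest in DZ lay above SFZ in R3-cKO but not in R3-Cntl, at 1340.16, 1710.49 and 2041.8 FPKM in DZ against 1116.4, 1307.66 and 1035.46 FPKM in SFZ (log2 fold change 0.54, limma adjusted p = 0.338).

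Marker genes of the zones and of some other cell types moved with the same contrast. Of 13 chondrocyte markers, 12 were higher in DZ (median log2 fold change 1.57), and their sum was 5648 to 17020 FPKM in SFZ and 17230 to 39310 FPKM in DZ. Of 12 tendon and fibroblast markers tested, 10 were lower in DZ, with sums of 4511 to 12620 FPKM in SFZ and 856.4 to 3347 FPKM in DZ. The 6 macrophage markers tested passed as lower in DZ, with sums of 6.73 to 182 FPKM in SFZ and 3.35 to 22.72 FPKM in DZ, and 7 of 9 superficial zone markers were lower. Of these lower calls, 4 of the 6 macrophage, 3 of the 10 tendon and fibroblast and 3 of the 7 superficial zone markers reached the filter of 1 FPKM in 3 libraries through SFZ alone, so that the filter favoured a lower call, and these counts support nothing. Of 5 osteoblast markers tested, 2 passed as lower, Bglap (−2.26) and Bglap2 (−2.20), while Alpl (−0.70), Sp7 (0.24) and Ibsp (0.75) did not pass. The 7 listed summed to 57.15 to 216.6 FPKM in SFZ and 26.6 to 210.7 FPKM in DZ. None of 3 skeletal muscle markers, 12 proliferation markers and 1 adipocyte marker tested passed. Of the 6 macrophage markers, 3 passed as lower with size factors and 3 with quantile normalization. With these scalings 13 and 11 chondrocyte markers passed as higher, and 9 tendon and fibroblast markers passed as lower with each. Endothelial and erythroid markers summed to at most 5.77 and 0.17 FPKM in any library. The part of cell composition in the Plagl1, Peg3 and Sgce differences was not tested. Within SFZ, the Pearson r with the chondrocyte sum was 0.81 for Plagl1 (exact permutation p = 0.0528, rho 0.77 with exact p = 0.103) and 0.77 for Peg3 (exact permutation p = 0.0806, rho 0.71 with exact p = 0.136), or 0.60 and 0.22 without the 2 libraries farthest from the median sum. Neither passed adjustment over the 54 relations computed between the 9 members and 3 marker sums in both zones, the adjusted p of r by exact permutation being 0.317 and 0.343. Within DZ, r was 0.54 for Plagl1 and 0.55 for Peg3 (rho 0.43 for both), or 0.49 and 0.72 without the 2 farthest. Same-numbered DZ libraries were taken as paired, so the 6 DZ libraries are not independent, and r within DZ is a description with no p here and below. Some SFZ libraries of unlike number also deviated together. The exact permutation p within SFZ, here and below, took the libraries as independent and may be too small.

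**Figure D3:**
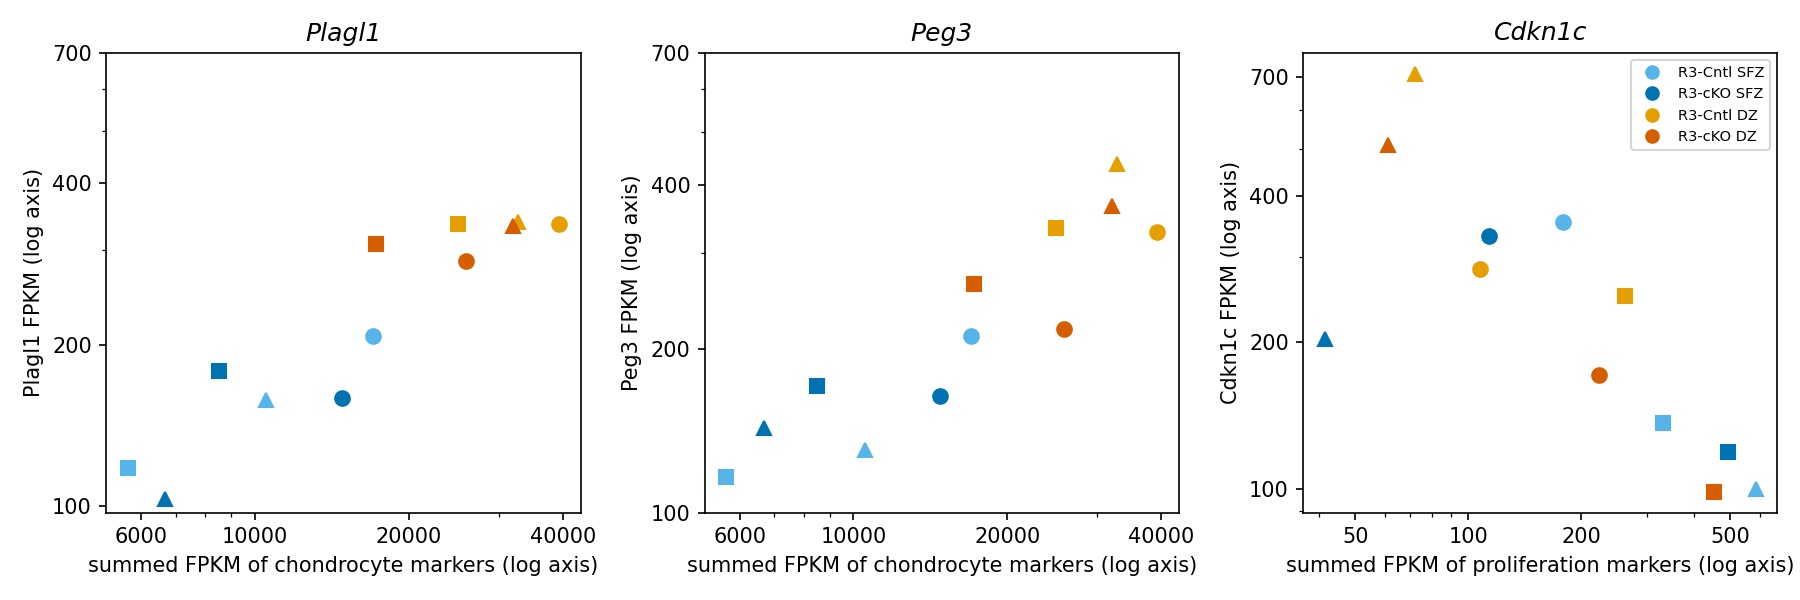
FPKM of Plagl1 and Peg3 against the summed FPKM of 13 chondrocyte markers, and of Cdkn1c against the summed FPKM of 12 proliferation markers, on log axes, with 1 point per library coloured by group (circle, square and triangle for libraries 1, 2 and 3). DZ libraries lie to the upper right for Plagl1 and Peg3, and the 4 libraries with the highest proliferation sums have the 4 lowest Cdkn1c values.

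Cdkn1c differed more between libraries of a group than between groups. In SFZ it was at 352.8, 136.54 and 99.78 FPKM in R3-Cntl and at 330.46, 118.98 and 202.69 FPKM in R3-cKO. In DZ it was at 282.9, 249.48 and 711.96 FPKM in R3-Cntl and at 171.16, 98.65 and 508.51 FPKM in R3-cKO. DZ libraries 3 were the highest of each genotype. The summed FPKM of 12 proliferation markers ran from 41.51 to 585 over the libraries, and the 4 libraries with the highest sums, from 329.8 to 585 FPKM, were the 4 with the lowest Cdkn1c. The library with the lowest proliferation sum, R3-cKO SFZ 3, was intermediate for Cdkn1c. Among the 6 DZ libraries the Pearson r of Cdkn1c with this sum was −0.93 and Spearman's rho −0.89, and r was −0.85 without the 2 libraries farthest from the median sum. Among the 6 SFZ libraries r was −0.66 (exact permutation p = 0.167) and rho −0.77 (exact permutation p = 0.103), with r at −0.93 without the 2 farthest libraries. None of the 54 relations passed Benjamini-Hochberg adjustment of the exact permutation p, in which the libraries of each zone were treated as independent. For Cdkn1c in SFZ the adjusted values were 0.425 for r and 0.411 for rho.

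In SFZ, 4 of the 27 relations had an unadjusted p of r under 0.05. With the proliferation sum, r was −0.97 for Gnas (exact permutation p = 0.00556, rho −0.94 with exact p = 0.0167) and −0.85 for Sgce (exact permutation p = 0.0278, rho −0.77 with exact p = 0.103). Without the 2 farthest libraries r was −0.90 and −0.69. With the tendon and fibroblast sum, r was 0.73 for Sgce (exact permutation p = 0.0222, rho 0.71 with exact p = 0.136), or 0.58 without the 2 farthest. Plagl1 in SFZ had r at −0.92 with the tendon and fibroblast sum (exact permutation p = 0.0222, rho −0.89 with exact p = 0.0333), which was −0.27 without R3-cKO SFZ 3 and R3-Cntl SFZ 2 and so rested on those libraries. The adjusted p of r by exact permutation was 0.214 for each of the 4. In DZ, r with the proliferation sum was −0.60 for Gnas and −0.86 for Sgce, and r with the tendon and fibroblast sum was 0.73 for Sgce and 0.42 for Plagl1. Grb10 had r at 0.95 with the proliferation sum in DZ and at 0.61 in SFZ (exact permutation p = 0.181, rho 0.43 with exact p = 0.419), and at −0.79 with the chondrocyte sum in DZ and −0.15 in SFZ (exact permutation p = 0.781, rho −0.09 with exact p = 0.919).

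The genotype comparison asked what the R3-cKO label changed within each zone. No member passed the test in either zone. In SFZ, 0 of 11537 genes passed in limma (0.0%), with 34 at an unadjusted p under 0.05, and no member was among the latter. R3-Cntl and R3-cKO SFZ libraries overlapped for all 9 members, against 2.37% of genes whose groups did not overlap. The member log2 fold changes lay between −0.35 for Dlk1 (interval −1.23 to 0.53) and 0.24 for Cdkn1c (interval −1.13 to 1.61). Without single libraries the Dlk1 value ran from −0.74 (without R3-cKO SFZ 2) to −0.093 (without R3-cKO SFZ 1). Dlk1 was at 125.53, 147.73 and 97.37 FPKM in R3-Cntl SFZ and at 66.38, 164.17 and 79.24 FPKM in R3-cKO SFZ, so that R3-cKO held both the highest and the lowest library. Y-linked genes (4) summed to at least 12.09 FPKM in every R3-Cntl library and to at most 0.06 FPKM in 4 of the 6 R3-cKO libraries. Sex was therefore not balanced between the genotypes, and its part in these values was not tested. The medians of some marker lists also moved with the label in SFZ, with no marker called. These log2 fold changes were −1.25 for proliferation, −0.88 for osteoblast and −1.21 for the 3 skeletal muscle markers tested. Muscle markers were high in R3-Cntl SFZ 2 alone, at a sum of 188.8 FPKM. Proliferation sums overlapped, at 179.4 to 585 FPKM in R3-Cntl and 41.51 to 492 FPKM in R3-cKO. Osteoblast sums were 99.6 to 216.6 FPKM in R3-Cntl and 57.15 to 84.35 FPKM in R3-cKO. For chondrocyte markers the median was −0.01. The part of these markers was not tested.

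In DZ, 0 of 11091 genes passed in limma (0.0%), with 404 at an unadjusted p under 0.05 and no member among them. The largest member estimates were again those with wide spread. Mest was at 698.91, 1386.43 and 1272.62 FPKM in R3-Cntl DZ and at 1340.16, 1710.49 and 2041.8 FPKM in R3-cKO DZ, a log2 fold change of 0.64 (SE 0.31, limma unadjusted p = 0.0799, adjusted p = 0.999). Without R3-Cntl DZ 1, the low library, it was 0.33. Cdkn1c was at −0.85 (SE 0.664), Dlk1 at −0.64 (SE 0.359) and Peg3 at −0.40 (SE 0.229), each with a limma adjusted p of 0.999. Without single libraries these estimates lay between −1.499 and −0.32, between −0.91 and −0.29 and between −0.60 and −0.23, in that order. Plagl1 was the only member whose groups did not overlap, by a narrow margin between 333.63 and 335.73 FPKM (log2 fold change −0.13, exact permutation p = 0.1, the smallest possible), against 8.02% of all genes.

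Same-numbered DZ libraries of the 2 genotypes deviated together, so the paired view was also read. At all 3 numbers, 7 of the 9 members had the same sign, 3 higher (Mest, Grb10 and Sgce) and 4 lower in R3-cKO (Cdkn1c, Peg3, Plagl1 and Gnas), as did 40.0% of genes tested. Among these 7 the ratios farthest from 1 were those of Mest, at 1.92, 1.23 and 1.6 of R3-Cntl, of Cdkn1c, at 0.605, 0.395 and 0.714, and of Peg3, at 0.665, 0.787 and 0.834. Blocked on the replicate number, the limma adjusted p was 0.215 for Mest, 0.175 for Cdkn1c and 0.212 for Peg3, so no member passed in that fit either. Osteoblast markers summed to 88.19, 91.28 and 210.7 FPKM in R3-Cntl DZ and to 44.94, 26.6 and 65.48 FPKM in R3-cKO DZ. Chondrocyte markers summed to 39310, 24900 and 32700 FPKM and to 25830, 17230 and 32010 FPKM. The median log2 fold changes of these lists in DZ were −1.32 and −0.59, and 0.57 for proliferation markers, with no marker called. Their part in the member values was not tested. The difference of the genotype effect between zones was tested by an interaction term. It passed for 0 of 11765 genes in limma (0.0%), with 99 at an unadjusted p under 0.05 and none of them a member; Mest was at 0.61 (SE 0.369) and Cdkn1c at −1.09 (SE 0.962), with a limma adjusted p of 0.999 for both.

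**Figure D4:**
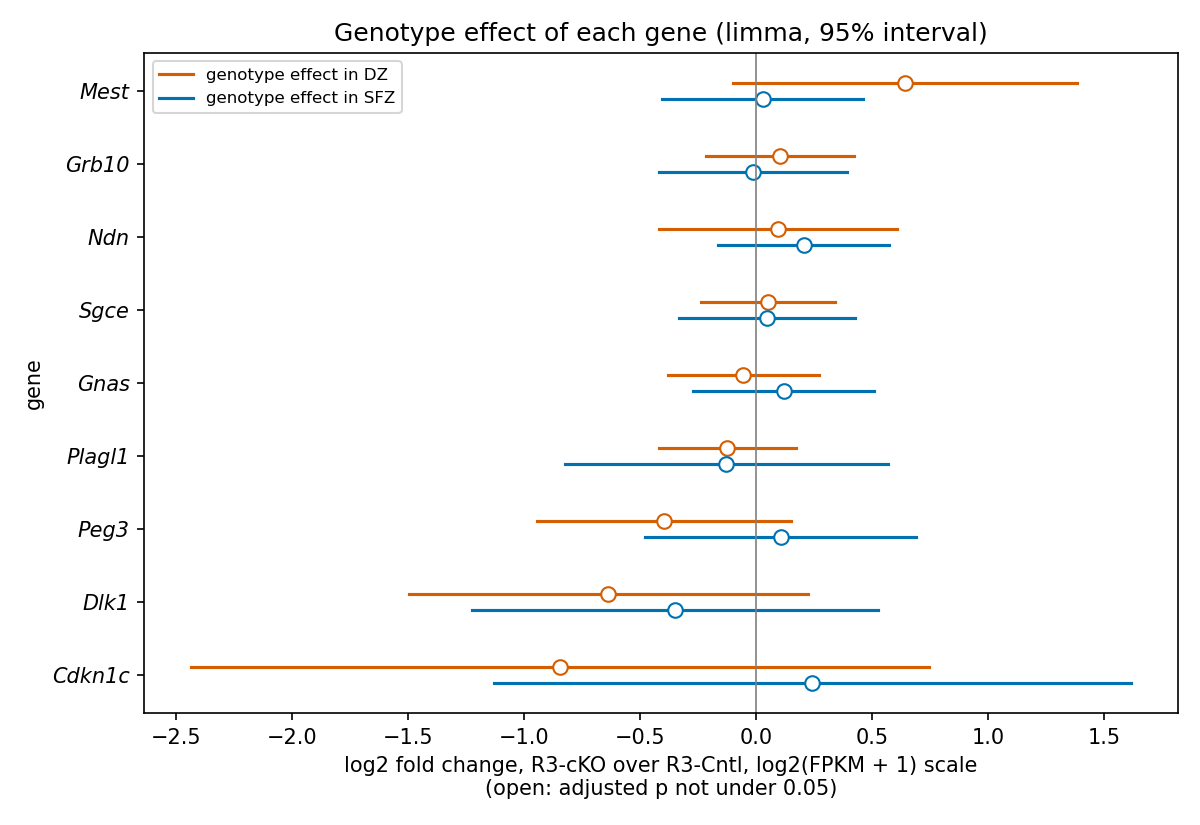
Log2 fold change of R3-cKO over R3-Cntl for each member with its 95% interval from limma, in DZ (orange) and SFZ (blue), 3 libraries against 3 in each. Every interval covers 0 and no member passed an adjusted p of 0.05; those of Cdkn1c are the widest, from −2.44 to 0.74 in DZ.

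Genes of the same chromosomal clusters were read from a list of 41 neighbours, of which 33 were in the table and 26 were tested between zones. Whether these genes, or the other imprinted genes below, are imprinted in these cells was not tested. Of these, 8 passed, beside the 23.2% of all genes, with 6 higher (4.3% of all genes) and 2 lower in DZ (18.9%). With the replicate block 14 passed, 9 higher and 5 lower, as did 3965 of all genes (800 higher and 3165 lower). The median log2 fold change of the 26 neighbours was 0.041, against −0.14 over all genes. Igf2, the fetal insulin-like growth factor, which lies 791.5 kb from Cdkn1c in mm9, was by far the most abundant. It ran from 1510.24 to 2986.96 FPKM in SFZ and from 3210.93 to 5198.51 FPKM in DZ, without overlap (log2 fold change 0.92, SE 0.19, limma adjusted p = 0.00753). Zim1, a zinc-finger gene 7.4 kb from Peg3, averaged 23.97 FPKM in SFZ and 49.26 FPKM in DZ (log2 fold change 0.94, SE 0.272, limma adjusted p = 0.0297). Magel2, a MAGE-family gene 27.1 kb from Ndn, was higher at a low level, at 1.14 and 4.21 FPKM (log2 fold change 1.35, SE 0.352, limma adjusted p = 0.0192), while Ndn itself was at 0.051. Asb4, 636.2 kb from Sgce, averaged 3.76 and 8.13 FPKM (log2 fold change 0.95, SE 0.165, limma adjusted p = 0.00365), while Sgce was lower in DZ.

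Neighbours therefore did not all share the direction of the nearest member. Peg10, a retrotransposon-derived gene that starts 0.1 kb from Sgce and was chosen after its values were seen, averaged 31.56 FPKM in SFZ and 64.48 FPKM in DZ (log2 fold change 1.12, SE 0.408, limma adjusted p = 0.0684), opposite in sign to Sgce. It passed as higher with size factors (1.28, limma adjusted p = 0.0464) and not with quantile normalization (limma adjusted p = 0.0503). Snrpn, of the Ndn cluster and likewise chosen afterwards, was at 0.45 (limma adjusted p = 0.0534) and passed as higher with both (limma adjusted p = 0.0295 and 0.0214). Usp29, on the other side of Peg3 and also chosen afterwards, averaged 0.44 and 1.10 FPKM (log2 fold change 0.55, limma adjusted p = 0.0055). It reached the filter through DZ alone, so its call as higher is a description, and 5 of the 6 higher neighbours reached it in both zones. The other called neighbours, outside the naming rule too, were Tspan32, higher at 0.74, and Osbpl5 and Begain, lower at −0.38 and −0.37; with size factors 8 neighbours passed as higher and 0 as lower, and with quantile normalization 7 and 0. Of 13 other imprinted genes tested, 3 passed, a share near the 23.2% of all genes: Igf2r, the receptor that clears IGF2, was higher (log2 fold change 0.38, limma adjusted p = 0.0419), and Commd1 (−0.48) and Inpp5f (−0.32) were lower, Inpp5f losing its call with either other scaling. Dcn, the proteoglycan decorin, was at 1.19 (limma adjusted p = 0.0507) and passed as higher with size factors (1.35, limma adjusted p = 0.0415) but not with quantile normalization (limma adjusted p = 0.0606). Zdbf2, like Dcn named after its values were seen, passed as higher with both (limma adjusted p = 0.0273 with size factors and 0.0125 with quantile normalization). Of the 13, 3 passed as higher and 1 as lower with size factors, and 2 and 1 with quantile normalization, against 1 and 2 as deposited. In neither zone did any neighbour or other imprinted gene pass between genotypes.

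**Figure D5:**
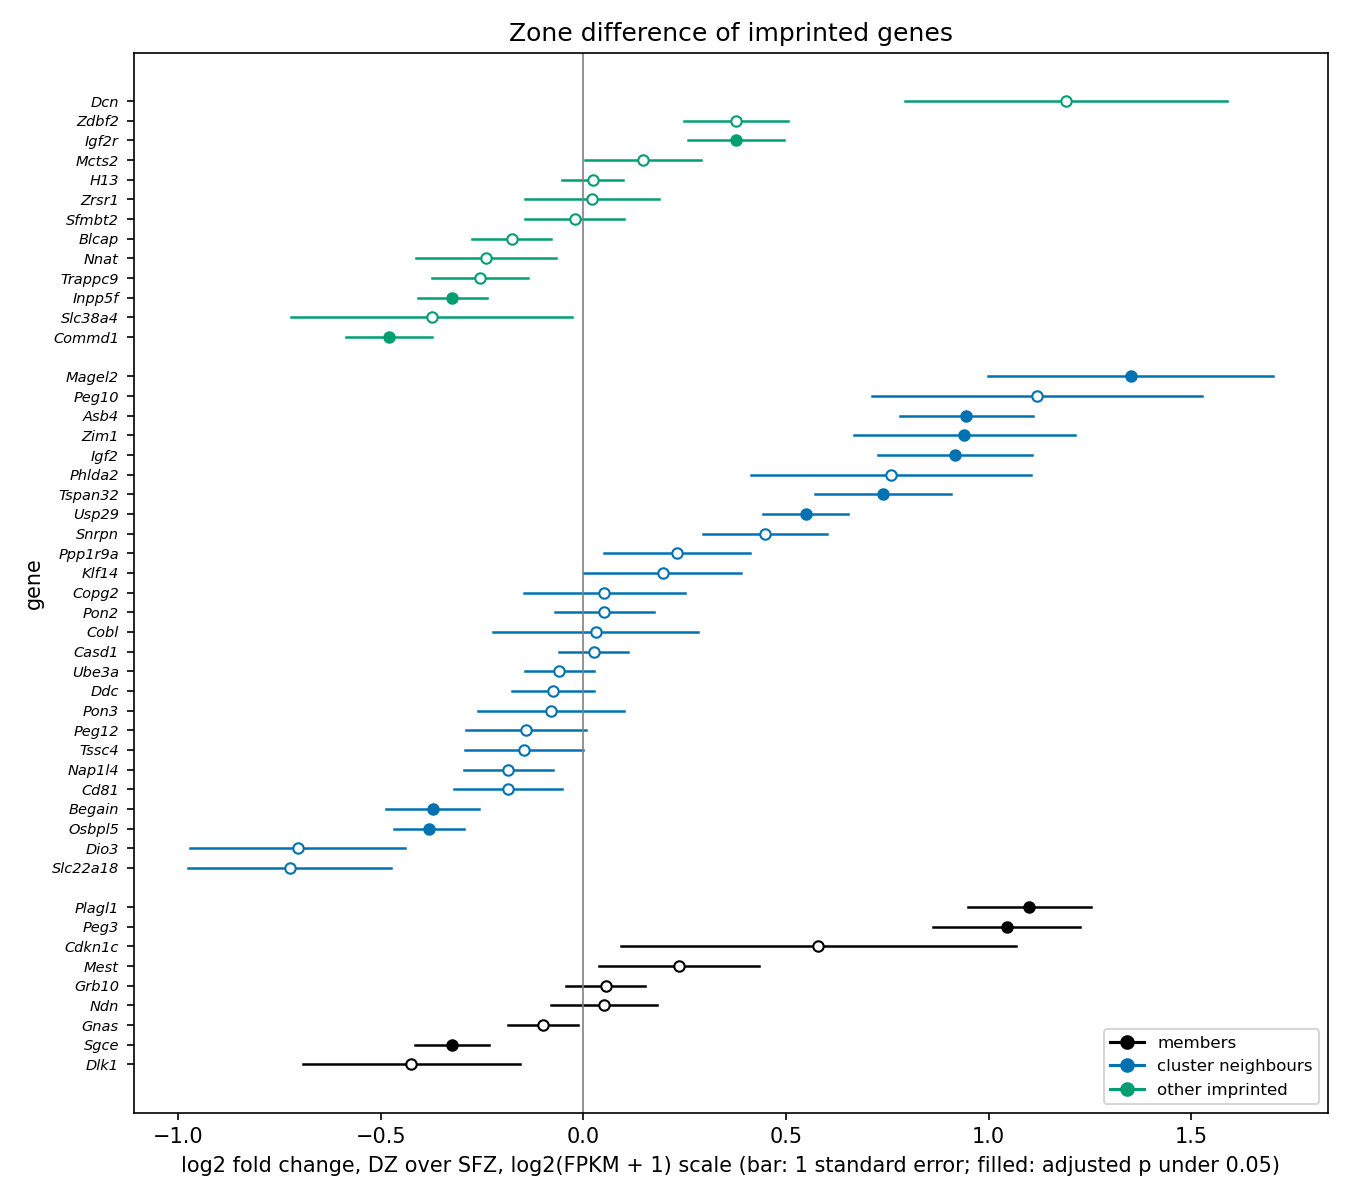
Log2 fold change of DZ over SFZ with 1 standard error for the 9 members (black), 26 genes of their clusters (blue) and 13 other imprinted genes (green), over 12 libraries. Filled points passed a limma adjusted p of 0.05; higher and lower genes occur in each list, with Magel2 at 1.35 the highest of the filled points.

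Genes that act with the members were read by role, each count beside the 23.2% of all genes that passed between zones (4.3% higher and 18.9% lower). Around Gnas, 10 of 22 genes of the receptor and cyclic AMP pathway passed between zones, 2 higher and 8 lower in DZ (median −0.25). Pth1r, the parathyroid hormone receptor that signals through Gs in chondrocytes, was higher, at 15.07 to 30.23 FPKM in SFZ and 35.2 to 77.76 FPKM in DZ (log2 fold change 1.10, SE 0.147, limma adjusted p = 0.00109). Prkar2b, a regulatory subunit of protein kinase A, was lower (−1.01, SE 0.157, limma adjusted p = 0.00225), as were the prostaglandin receptor Ptger4 (−0.81, limma adjusted p = 0.00831) and the adenylyl cyclase Adcy7 (−0.64, limma adjusted p = 0.0251). Ptger4 reached the filter through SFZ alone, at 0.5 to 1.87 FPKM there and at most 0.45 FPKM in DZ, so its call is a description. Adcy7 lost its call with size factors (limma adjusted p = 0.0544) and with quantile normalization (limma adjusted p = 0.115). With size factors 3 of the 22 passed as higher and 4 as lower, and with quantile normalization 3 and 3, so most of the lower calls depended on the scaling.

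Around Grb10, none of 11 insulin and IGF receptor pathway genes passed between zones, while 1 of them, Irs1, passed as higher with size factors (0.43, limma adjusted p = 0.0344) and with quantile normalization (0.43, limma adjusted p = 0.0492). Nedd4, the ubiquitin ligase that binds Grb10, averaged 353.8 FPKM in SFZ and 340 FPKM in DZ, and Akt1 135.8 and 133.4 FPKM. Akt2 averaged 83.63 and 75.14 FPKM, and Irs1 19.04 and 23.47 FPKM. Around Cdkn1c, 1 of 12 cell-cycle genes passed, the related inhibitor Cdkn1b (−0.29, limma adjusted p = 0.0465), and it did not pass with either other scaling. Instead 2 genes then passed as higher, Ccnd3 and Cdk6, with limma adjusted p of 0.026 and 0.0439 with size factors and 0.0318 and 0.0241 with quantile normalization; they were named after their values were seen. Around Dlk1, 3 of 7 Notch pathway genes passed, all lower in DZ: Notch3 (−0.70, limma adjusted p = 0.0124), the sheddase Adam17 (−0.38, limma adjusted p = 0.0125) and Notch2 (−0.28, limma adjusted p = 0.0451). Adam17 and Notch2 lost their calls with both other scalings. Notch3 kept its call but reached the filter through SFZ alone, at 0.58 to 2.21 FPKM there and at most 0.70 FPKM in DZ, so its call is a description.

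Around Sgce, 3 of 10 genes of the dystrophin-associated complex passed, all lower in DZ. Sspn, sarcospan, was at −0.56 (SE 0.118, limma adjusted p = 0.00794), the syntrophin Sntb2 at −0.55 (SE 0.129, limma adjusted p = 0.0122) and beta-sarcoglycan Sgcb at −0.53 (SE 0.117, limma adjusted p = 0.01). All 3 passed with size factors, and Sntb2 alone of them with quantile normalization (limma adjusted p = 0.0447). Dmd, dystrophin itself, named after its values were seen, passed as higher with quantile normalization (0.49, limma adjusted p = 0.0303), against 0.25 (limma adjusted p = 0.218) as deposited. Around Ndn, 2 of 10 genes passed, a share near that of all genes, and both were higher: Magel2 and Maged2, of the MAGE family, the latter averaging 82.49 FPKM in SFZ and 120 FPKM in DZ (log2 fold change 0.53, SE 0.144, limma adjusted p = 0.0237). Neither Plag1 nor Plagl2, the relatives of Plagl1, passed; they averaged 1.31 and 4.84 FPKM in SFZ and 1.69 and 4.44 FPKM in DZ, far below Plagl1. Plag1 passed as higher with quantile normalization (0.49, limma adjusted p = 0.0311). None of 4 genes of the Peg3 list passed, the most abundant being Bax at 118.8 and 114.4 FPKM, then Siah1a at 12.55 and 9.67 FPKM.

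The genes whose pattern over the 12 libraries was most like each member were taken among 5925 genes with a mean of 10 FPKM or more, by Pearson r on the log2(FPKM + 1) scale. For Plagl1 these were Slc16a3, a lactate transporter (0.98), Cdk17 (0.97) and Fam20b (0.97). For Peg3 they were Col27a1, a fibrillar collagen of cartilage (0.97), Golga5 (0.97) and Ganab (0.96). For Sgce they were Rab43 (0.97), Palm (0.96) and Zfp521 (0.96), all with lower means in DZ. For Cdkn1c they were Slc31a1 (0.96), Scarb2 (0.96) and Gpc6 (0.95), and for Gnas Cpxm1 (0.95), Lamp2 (0.93) and Lmbrd1 (0.92). The likeness was weaker for Grb10 (Fcf1, 0.94), Ndn (Commd3, 0.91), Mest (Tbx15, 0.90) and Dlk1 (Rnft1, 0.86), each given with its closest gene. These are the highest of 5925 values of r for each member and are descriptions only.

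Among the members themselves, the pair with the highest r was Plagl1 and Peg3, and Plagl1 and Sgce had the lowest, at −0.80. With the group means removed, Gnas and Sgce had r of 0.87, Dlk1 and Grb10 0.75, and Peg3 and Cdkn1c and likewise Cdkn1c and Sgce 0.74. The last pair had r of 0.13 before the group means were removed. The 12 libraries share zone and genotype, so these values are descriptions with no test.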

How the data were processed

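RNA of 12 libraries (3 per group) was sequenced on the BGISEQ-500 as 100-bp paired-end reads and mapped to mm9; the submitters' processing notes name Bowtie 0.12.2. The authors deposited 1 table of 17536 genes in FPKM, with TMM scaling named by the table; that the values are linear FPKM was inferred from them. The study's methods name quantile normalization, log2-transformed counts and linear models. The deposited values are not on that scale, so quantile normalization was an alternative. The study's supplement also ranks genes between genotypes in each zone by fold change, with P values from a negative binomial model. No member is among the genes it lists, and that test was not repeated on these scaled values. Read depth could not be recovered; values of the lowest genes were alike in all libraries, and no counting interval was given.

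Values were taken as log2(FPKM + 1), a gene was kept where 3 or more libraries of a comparison reached 1 FPKM, whatever their zone, and limma 3.58.1 (R 4.3.3; trend, 0.05 after Benjamini-Hochberg adjustment over all genes tested) was fitted; the fit was tested on simulated data. Single values were also tested by exact permutation of libraries (SciPy 1.17.1). Zone comparisons over both genotypes had genotype as a covariate. The members and lists were chosen with earlier results of these data known, and the 54 relations with marker sums and the list counts under other scalings were added after seeing the data. Named genes were all members, Runx3 and per member its 3 most correlated genes. Per list, at most 4 called genes with the largest zone difference were named, otherwise the most abundant. Peg10, Usp29, Tspan32, Osbpl5, Begain, Ccnd3, Cdk6, Zdbf2, Dcn, Snrpn and Dmd were named outside this rule, after their values were seen. Col2a1, Sox9, Alpl, Sp7, Ibsp and the genes overlapping Mest and Gnas were also named outside it. The labels do not tie library numbers to animals. Across 11359 genes, deviations of same-numbered libraries from their group means correlated at 0.65, 0.78 and 0.69 between the DZ genotypes. Between the zones of R3-cKO they correlated at 0.42, 0.78 and 0.65, so these libraries were taken as paired from the data. Same-numbered libraries of the SFZ genotypes (0.79, −0.09 and −0.42) and of the zones of R3-Cntl (0.58, 0.11 and −0.15) were not. Some libraries of unlike number also deviated together: R3-Cntl SFZ 3 with R3-cKO SFZ 2 (0.69) and R3-Cntl DZ 2 (0.58). R3-Cntl SFZ 2 did so with R3-cKO SFZ 3 (0.45) and R3-Cntl DZ 3 (0.38). The other unlike-numbered pairs of the SFZ genotypes and of the R3-Cntl zones lay between −0.57 and 0.04. The SFZ libraries may therefore not be independent either. The study gives 3 individual littermate mice per genotype as the source of SFZ and DZ cells, so the zones may share animals. The fits treated libraries as independent. Plagl1, Peg3 and Sgce also passed between zones with the replicate block, set by genotype and number (limma adjusted p = 0.00299, 0.00807 and 0.0171). In R3-Cntl that block joins zones whose numbers were not taken as paired, so it cannot settle the effect of shared animals. Alternatives were the filter, pseudocounts, scaling, the replicate block, 1 model of all 12 libraries, and leaving out each library. No column of per-sample values was left unmapped.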

Additional observations from a re-analysis of the deposited data

Results flagged for a closer look

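Among 18 sets of 6 libraries (9 members in 2 zones), 1 held a library far from the others: Dlk1 in R3-Cntl DZ library 1, at 161.82 FPKM. The other 5 DZ libraries lay between 49.2 and 90.23 FPKM, and the gap over the range was 0.636 against Dixon's critical value of 0.625 for 6 libraries. Chance marks about 1 in 20 such sets. Without this library the log2 fold change of Dlk1 between R3-cKO and R3-Cntl in DZ was −0.29, against −0.64 with it, and neither passed in limma; the cause was not tested.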

How the results depend on the processing

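Of 891 member values recomputed under an alternative, 822 kept their direction and their side of the threshold and 54, all named here, turned direction, none of them past the threshold. Between zones over both genotypes, the Plagl1 log2 fold change lay between 1.07 and 1.26 and that of Peg3 between 1.02 and 1.21 under other filters, pseudocounts, scalings and the replicate block, and between 0.996 and 1.19 and between 0.94 and 1.15 without single libraries, all past the limma threshold. Sgce (−0.37 to −0.29 without single libraries, limma adjusted p 0.0127 to 0.0687) lost its call with quantile normalization, with size factors and in 7 of 12 fits without a library (R3-Cntl SFZ 1 or 2, R3-cKO SFZ 1 or 3, R3-Cntl DZ 1 or 2, R3-cKO DZ 1). The 2725 genes called became 1162 above a mean of 10 FPKM (fewer genes tested), 3965 with the replicate block, and 1624 (without R3-Cntl SFZ 2) to 2899 without single libraries. With the block, 14 of 22 genes around Gnas passed (3 higher, 11 lower), 6 of 10 around Sgce (all lower) and 4 of 12 around Cdkn1c (2 and 2). Around Ndn 3 of 10 passed (2 and 1), around Dlk1 3 of 7 (all lower), around Grb10 1 of 11 and around Peg3 1 of 4 (both lower). Of 13 other imprinted genes, 4 passed (2 and 2).

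In R3-Cntl the 140 genes called between zones became 0 with no filter, 8 above a mean of 10 FPKM, 88 and 29 with pseudocounts of 0.1 and 5, 1 with quantile normalization, 17 with size factors, 831 with the replicate block, 798 with all 12 libraries in 1 model and 0 to 505 without single libraries, 505 without R3-Cntl SFZ 1 and at most 4 without any other. The 0 members called became 1 with the replicate block (Plagl1, limma adjusted p = 0.0423), 2 with all 12 libraries and 0 to 2 without single libraries (Plagl1 and Peg3, both at 0.0323 without R3-Cntl SFZ 1). The library numbers do not pair R3-Cntl or the SFZ genotypes. In R3-cKO the 2 genes became 5 with no filter, 0 above a mean of 10 FPKM, 1 with either pseudocount, 352 with the replicate block, 165 with all 12 libraries (1 member, Plagl1) and 0 to 5 without single libraries, 5 without R3-cKO SFZ 3 and at most 1 without any other. Between genotypes in DZ, 1 gene passed with no filter. The block, run for every comparison, changed no other call of a member.

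Directions near 0 turned with the scaling: with quantile normalization Gnas (0.074) and Sgce (−0.006) between genotypes in DZ, Grb10 between zones in R3-Cntl (0.052), Ndn in R3-cKO (0.071) and the interaction of Sgce (−0.049); with size factors Gnas between zones (0.064), Mest, Grb10 and Gnas in R3-Cntl (0.13, 0.19 and 0.19), Ndn in R3-cKO (0.13) and the interactions of Plagl1 and Sgce (−0.059 and −0.06). Without single libraries signs also turned, none past the threshold: between genotypes in SFZ for Plagl1 (−0.34 to 0.10), Mest (−0.066 to 0.13), Peg3 (−0.063 to 0.36), Grb10 (−0.16 to 0.091), Cdkn1c (−0.14 to 0.77) and Sgce (−0.062 to 0.16), in DZ for Ndn (−0.026 to 0.30) and Sgce (−0.023 to 0.11); between zones for Ndn (−0.046 to 0.10), in R3-Cntl for Mest (−0.26 to 0.24), Grb10 (−0.072 to 0.059), Ndn (−0.10 to 0.23) and Gnas (−0.06 to 0.018), in R3-cKO for Cdkn1c (−0.62 to 0.56) and Ndn (−0.12 to 0.10); and in the interaction for Dlk1 (−0.55 to 0.10), Plagl1 (−0.23 to 0.21), Ndn (−0.23 to 0.096) and Sgce (−0.11 to 0.11). The cause was not tested. Without read depth, no counting error could be given for any value.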
